A study of Homo sapiens with 18 samples.

Results

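Interferon-stimulated genes were followed in PNT1A cells, a normal prostate epithelial line immortalised with SV40. The 51 genes of a list of interferon-induced genes were looked up on the array, and a gene was kept where a probe set carried its symbol alone, using the row with the highest mean where a gene had several. With this rule 49 of the 51 genes had a row, among 22392 genes measured. TRIM25, the ubiquitin ligase that helps activate RIGI, was only on a row shared with a microRNA gene, and STAT2 is not analysed here.

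The series compared cells in flasks placed in a water-equivalent phantom of a torso and head during stereotactic body radiotherapy delivered by volumetric modulated arc therapy to the prostate position. Cells on the beam axis (prostate position) received 70 Gy as 7 consecutive fractions of 10 Gy. Peripheral cells lay outside the field in 4 positions named after organs, with distances to the axial plane of 15 cm for the intestine, 35 cm for the lung, 52 cm for the thyroid and 74 cm for the brain. Control cells, labelled untreated and described in the protocol as sham-irradiated, were kept in buffer at room temperature. Every flask held the same line, so the names of organs stand for positions and not for tissues, and the cultures held no immune cells. Total RNA was taken after 24 h of culture and hybridised to Human Gene 2.1 ST arrays, 3 for each of the 6 groups, described as biological replicates. All levels below are log2 intensities, and a difference of 1 on this scale is a doubling. A gene was called changed in a comparison at an adjusted p below 0.05 in limma and a fold change above 1.5, and the small number of arrays limits the precision.

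Interferons are secreted proteins that warn cells of infection. Sensors in the cytosol detect foreign or misplaced nucleic acid, RNA in the case of RIGI and IFIH1 and DNA in the case of CGAS with its adaptor STING1, and switch on the interferon genes. Interferon then acts through its receptors and the kinases JAK1 and TYK2 on a transcription factor complex that includes STAT2 and IRF9 and binds the interferon-stimulated response element (ISRE) in target promoters. The targets include the sensors themselves, regulators that tune the pathway, effectors that degrade viral RNA or block translation and entry, and the machinery that supplies peptides to MHC class I molecules. Induction of such genes by ionising radiation has been described in other cultured cells.

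The promoters show what many of these genes share in sequence. The list holds genes known as interferon-induced, so a high share of ISRE matches among them is not a separate result of these data. Promoter windows of 300 bases, from 250 before to 50 after the RefSeq start on GRCh38.p14, were found for 38 of the 49 genes. An ISRE was searched as GAAA, any 2 bases and a second GAAA, or on the other strand as TTTC, any 2 bases and a second TTTC, and it was present in 25 of the 38 windows (65.8%), against 3.65% of all 27305 windows of the table. Printed below are the 4 windows with such a match whose genes had the largest fold change among those called higher on the axis. The 2 windows without such a match that follow were chosen in the same way. No window was found for the remaining members, which include LAMP3, OAS2 and CGAS, so these genes were not searched. Capitals mark the ISRE matches, and every sequence runs 5′ to 3′ on the strand of its gene. The windows are chr1:78620198-78620497 (plus strand) for IFI44L, chr21:41420308-41420607 (plus) for MX1, chr12:112938224-112938523 (plus) for OAS3, chr4:88456869-88457168 (plus) for HERC5, chr12:112906712-112907011 (plus) for OAS1 and chr9:32526147-32526446 (minus) for RIGI.
IFI44L: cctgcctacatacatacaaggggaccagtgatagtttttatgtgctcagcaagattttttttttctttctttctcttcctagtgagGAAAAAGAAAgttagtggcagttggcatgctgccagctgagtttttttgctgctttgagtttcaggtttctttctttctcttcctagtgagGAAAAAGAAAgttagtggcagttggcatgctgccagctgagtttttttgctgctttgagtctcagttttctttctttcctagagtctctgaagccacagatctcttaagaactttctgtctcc
MX1: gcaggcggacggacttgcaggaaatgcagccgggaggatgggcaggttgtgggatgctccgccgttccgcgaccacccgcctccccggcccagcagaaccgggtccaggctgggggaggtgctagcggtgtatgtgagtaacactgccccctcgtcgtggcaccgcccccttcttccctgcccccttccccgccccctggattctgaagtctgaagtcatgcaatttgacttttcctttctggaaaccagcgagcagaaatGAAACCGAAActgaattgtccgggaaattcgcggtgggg
OAS3: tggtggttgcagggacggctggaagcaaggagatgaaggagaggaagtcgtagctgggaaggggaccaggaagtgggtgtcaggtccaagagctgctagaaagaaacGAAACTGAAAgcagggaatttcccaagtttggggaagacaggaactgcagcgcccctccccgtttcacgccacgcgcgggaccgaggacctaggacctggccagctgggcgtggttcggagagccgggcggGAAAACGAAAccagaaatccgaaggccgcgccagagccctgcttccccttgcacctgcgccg
HERC5: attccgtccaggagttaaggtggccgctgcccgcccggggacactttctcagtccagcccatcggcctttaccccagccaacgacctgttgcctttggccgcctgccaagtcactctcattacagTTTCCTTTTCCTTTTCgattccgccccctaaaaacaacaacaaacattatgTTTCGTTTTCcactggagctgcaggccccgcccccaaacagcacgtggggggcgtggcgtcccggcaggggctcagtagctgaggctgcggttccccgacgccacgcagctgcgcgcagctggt
OAS1: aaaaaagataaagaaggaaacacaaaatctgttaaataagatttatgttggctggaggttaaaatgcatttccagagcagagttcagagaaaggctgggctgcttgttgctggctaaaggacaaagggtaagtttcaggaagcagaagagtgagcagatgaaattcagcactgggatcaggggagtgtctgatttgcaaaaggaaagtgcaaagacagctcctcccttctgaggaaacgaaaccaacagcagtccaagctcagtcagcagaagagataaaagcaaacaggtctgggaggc
RIGI: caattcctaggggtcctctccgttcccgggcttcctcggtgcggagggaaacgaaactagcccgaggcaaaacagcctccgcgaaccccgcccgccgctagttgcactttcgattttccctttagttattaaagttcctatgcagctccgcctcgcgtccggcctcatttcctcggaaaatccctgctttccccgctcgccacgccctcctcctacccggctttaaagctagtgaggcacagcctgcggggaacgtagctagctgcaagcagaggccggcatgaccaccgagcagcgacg
IFI44L held 2 matches and HERC5 held 3, of which the first pair overlapped. The OAS1 and RIGI windows held no match to the searched pattern with 2 bases between the repeats. Both do hold the letters gaaacgaaa, in which only the base c lies between the repeats, and this spacing was not searched. A match is a description of the letters, and its absence says only that these letters were not in this window.

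On the beam axis, many interferon-stimulated genes were higher than in control cells, led by LAMP3, OAS2, IFI44L and OAS1. Of the 49 genes, 25 were called higher, 1 (GBP2) was called lower and 23 were not called, so that 53.1% were called against 7% of all genes tested (4.39% higher and 2.6% lower). The 25 genes called higher had a median fold change of 1.84 and a range of 1.51 to 8.05, and 11 of them were at least 2-fold higher. The median log2 fold change was 0.59 over the 49 genes and 0.0070 over all genes, and 41 of the 49 had a value above 0. Another 7 genes passed the adjusted p but stayed within 1.5-fold, 5 of them upwards and 2 downwards, and 16 did not pass it, so that 33 of the 49 passed, against 20.4% of all genes. In RNA from whole cultures, a change in the share of responding cells and a change in RNA per cell cannot be told apart.

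**Figure D1:**
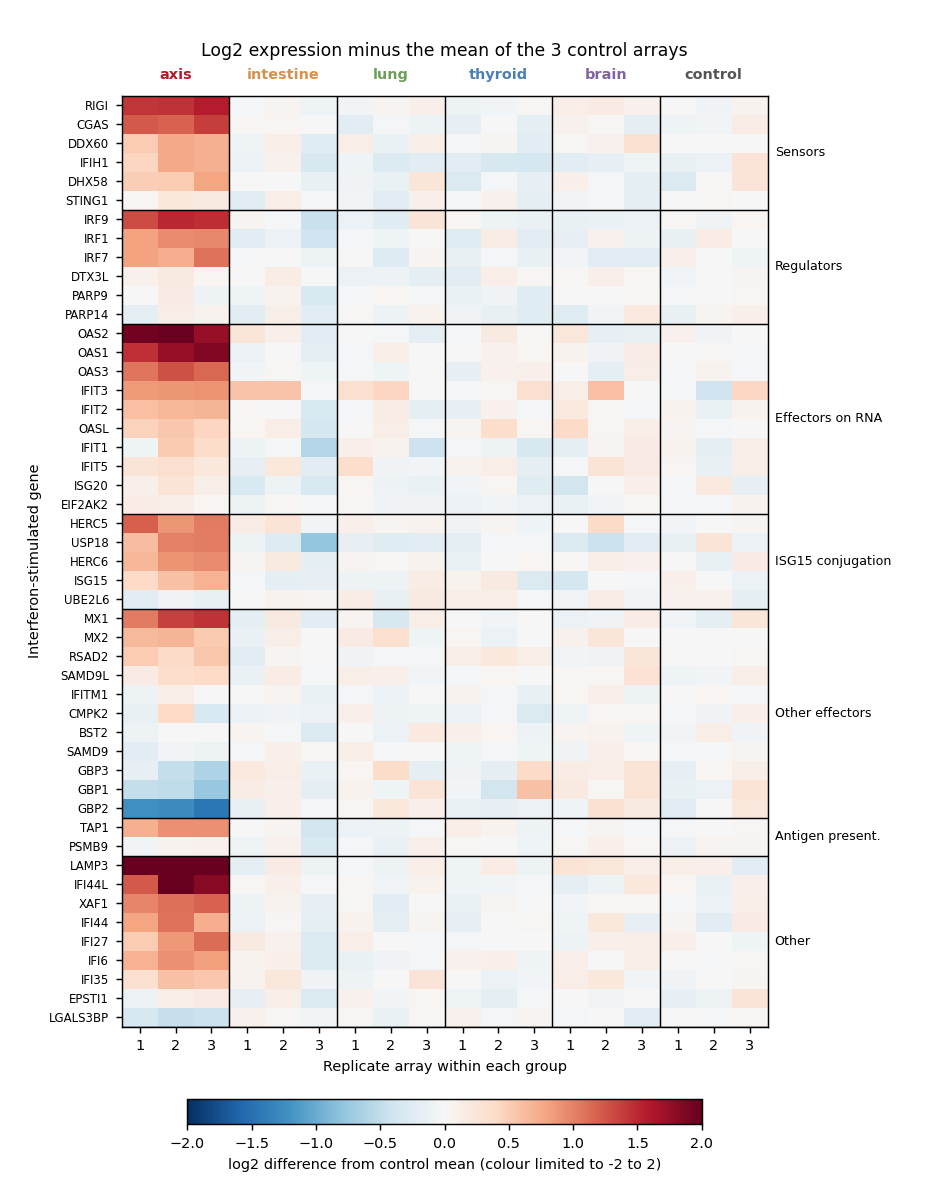
Log2 expression of the 49 interferon-stimulated genes (rows, grouped by role) on each of the 18 arrays (columns, 3 replicates per group) as the difference from the mean of the 3 control arrays, with colour limited to -2 to 2. The axis arrays are red for most genes and blue for the GBP genes and LGALS3BP, while the 4 peripheral groups stay near the control level.

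The separation was visible array by array. For 29 of the 49 genes, the 3 axis arrays lay above all 15 other arrays (11.7% of all genes did so), and these included each of the 25 genes called higher. The calls were made on the same axis and control arrays, so this separation is not separate evidence for them. For 3 genes, GBP1, GBP2 and LGALS3BP, the axis arrays lay below all 15 others (7.51% of all genes). Against the 3 control arrays alone, the axis arrays lay above in 32 genes (18.1% of all genes) and below in 5 (15.7% of all genes). In the other 12 genes the axis arrays overlapped with the control arrays. The median difference from the control mean over the 49 genes was 0.49, 0.58 and 0.68 on the 3 axis arrays, and it lay between -0.16 and 0.080 on the other 15.

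Among the nucleic acid sensors, 5 of the 6 measured genes were called higher on the axis and 0 lower, with a median log2 fold change of 0.65. Over all genes tested, 4.39% were called higher and 2.6% lower, which is the background for the counts by role. RIGI (listed under its earlier symbol DDX58), the cytosolic sensor of viral RNA ends, measured 7.004, 7.012 and 7.133 on the axis arrays and 5.582, 5.492 and 5.637 on the control arrays. The peripheral arrays read 5.53, 5.62 and 5.48 in the intestine, 5.52, 5.62 and 5.67 in the lung, 5.46, 5.52 and 5.59 in the thyroid and 5.71, 5.73 and 5.66 in the brain position. The axis arrays thus stood apart from the other groups, and RIGI was 2.79-fold higher than in control (log2 fold change 1.48 ± 0.07 SE, adjusted p = 2.6e-11). CGAS, which senses DNA in the cytosol, measured 6.99, 6.95 and 7.15 on the axis arrays, against 5.68, 5.70 and 5.90 in control. Its 12 peripheral arrays ranged between 5.53 and 5.84 with a median of 5.75, so CGAS was clear of both on the axis and was 2.41-fold higher than in control (1.27 ± 0.09 SE, adjusted p = 5.7e-09).

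The remaining sensors moved less. DDX60, a helicase that assists RIGI, had 5.65, 5.89 and 5.86 on the axis and 5.14, 5.14 and 5.15 in control (1.58-fold higher, adjusted p = 1.6e-04), with peripheral arrays between 4.90 and 5.44. IFIH1 (MDA5), the sensor of long double-stranded RNA, had 3.997, 4.323 and 4.274 on the axis and 3.415, 3.453 and 3.829 in control (1.55-fold higher, adjusted p = 5.1e-04), with peripheral arrays between 3.21 and 3.65. DHX58 (LGP2), a helicase that modulates both RNA sensors, had 5.226, 5.247 and 5.527 on the axis and 4.455, 4.763 and 5.004 in control (1.51-fold higher, adjusted p = 0.0024), with peripheral arrays between 4.46 and 4.98. The axis arrays of these genes lay above the control arrays, but IFIH1 and DHX58 were close to the 1.5-fold limit. IFIH1 was not called without control replicate 1, control replicate 2 or axis replicate 2 (log2 fold changes of 0.56, 0.58 and 0.57), nor DHX58 without control replicate 1 or axis replicate 3 (0.45 and 0.50). STING1, the adaptor downstream of CGAS, was the sensor gene that was not called: it had 6.51, 6.68 and 6.64 on the axis and 6.45, 6.49 and 6.46 in control, with peripheral arrays between 6.25 and 6.60 (log2 fold change 0.14, 95% confidence interval -0.07 to 0.35, adjusted p = 0.41). Its axis arrays lay above the 3 control arrays and overlapped with the peripheral arrays.

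The regulators split into transcription factors that were higher and ADP-ribosylation enzymes that were not called. Of 6 measured genes, 3 were called higher on the axis (background 4.39%) and 0 lower (2.6%), with a median log2 fold change of 0.49. IRF9, the DNA-binding partner of STAT2, measured 7.30, 7.51 and 7.48 on the axis and 6.02, 5.94 and 6.05 in control, with the 12 peripheral arrays between 5.56 and 6.25 around a median of 5.89. No array outside the axis reached the axis level, and IRF9 was 2.70-fold higher than in control (1.43 ± 0.12 SE, adjusted p = 6.3e-08). A second, dimmer IRF9 probe set was not called in limma (log2 fold change 0.27, adjusted p = 0.54). Nor was a row that IRF9 shares with RNF31 (-0.06). IRF1, a factor induced early by interferon gamma, measured 6.95, 7.08 and 7.11 on the axis and 5.99, 6.29 and 6.15 in control (1.87-fold higher, adjusted p = 4.8e-06), with peripheral arrays between 5.74 and 6.29. IRF7, which drives interferon alpha genes, measured 4.27, 4.19 and 4.55 on the axis and 3.56, 3.45 and 3.38 in control (1.83-fold higher, adjusted p = 2.3e-06), with peripheral arrays between 3.20 and 3.52. Both were also free of overlap with the other 15 arrays. PARP9, its partner ubiquitin ligase DTX3L and PARP14 had log2 fold changes of 0.01, 0.10 and 0.00, with confidence intervals that stayed within 1.5-fold in either direction.

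The effectors were counted together and then by kind. Over the effectors on RNA, the ISG15 system and the other antiviral proteins together, 10 of 26 genes were called higher, 1 lower and 15 not called. The background over all genes was 4.39% higher and 2.6% lower. The median log2 fold change of the 26 genes was 0.39.

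The effectors that act on viral RNA or its translation had 5 of 10 genes called higher (background 4.39%) and 0 lower (2.6%). Their median log2 fold change was 0.56. The oligoadenylate synthetases, which make a messenger that sets off RNA decay, led this role. OAS2 measured 7.74, 7.78 and 7.55 on the axis and 5.90, 5.73 and 5.79 in control, with peripheral arrays between 5.57 and 6.04 around a median of 5.80. OAS1 measured 5.92, 6.19 and 6.30 on the axis and 4.45, 4.48 and 4.43 in control, with peripheral arrays between 4.26 and 4.59 around a median of 4.46. OAS3 measured 7.23, 7.45 and 7.32 on the axis and 6.15, 6.23 and 6.12 in control, with peripheral arrays between 5.99 and 6.28 around a median of 6.15. Each gene of this trio separated the axis arrays from the other 15 by more than the spread within any group. The change against control was 3.69-fold for OAS2 (1.88 ± 0.12 SE, adjusted p = 1.3e-09), 3.22-fold for OAS1 (1.69 ± 0.09 SE, adjusted p = 1.1e-10) and 2.25-fold for OAS3 (1.17 ± 0.09 SE, adjusted p = 1.2e-08). OASL, the relative that has lost synthetase activity, passed the adjusted p at 1.39-fold and was not called.

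The IFIT proteins, which bind viral RNA and hold back its translation, differed among themselves. IFIT3 was 1.84-fold higher (adjusted p = 0.0025) and IFIT2 was 1.57-fold higher on the axis (adjusted p = 1.3e-04). IFIT1 had a log2 fold change of 0.27 (95% confidence interval -0.10 to 0.63, adjusted p = 0.36) and IFIT5 one of 0.27 (-0.01 to 0.54, adjusted p = 0.19). IFIT3 had the widest spread in control (SD 0.41 over arrays at 5.50, 5.12 and 5.94), and its axis arrays were close together at 6.38, 6.40 and 6.43. The IFIT2 call was lost without control replicate 2, at a log2 fold change of 0.58. EIF2AK2 (PKR), the kinase that stops translation on double-stranded RNA, had a log2 fold change of 0.11, and the exonuclease ISG20 had 0.16, both within 1.5-fold over their confidence intervals.

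The ISG15 system was taken here as this ubiquitin-like protein, enzymes that attach or remove it, and HERC6. Of its 5 genes, 3 were called higher (background 4.39%) and 0 lower (2.6%), with a median log2 fold change of 0.83. HERC5, the main ligase for ISG15, measured 5.79, 5.47 and 5.62 on the axis and 4.53, 4.57 and 4.65 in control (2.06-fold higher, adjusted p = 7.0e-07), with peripheral arrays between 4.51 and 4.96. USP18, which removes ISG15 and restrains the interferon receptor, measured 7.65, 8.04 and 8.06 on the axis and 6.89, 7.30 and 6.92 in control (1.84-fold higher, adjusted p = 1.8e-04), with peripheral arrays between 6.26 and 7.01. HERC6 measured 7.55, 7.79 and 7.83 on the axis and 6.88, 6.74 and 7.05 in control (1.78-fold higher, adjusted p = 4.5e-06), with peripheral arrays between 6.69 and 7.06. These genes showed no overlap between the axis and the other groups. ISG15 itself had 6.08, 6.26 and 6.36 on the axis and 5.77, 5.69 and 5.56 in control, and its 1.47-fold difference (adjusted p = 0.0023) stayed just under the limit of the call. It was called higher without control replicate 1 (log2 fold change 0.61) or axis replicate 1 (0.64). UBE2L6, the conjugating enzyme for ISG15, had a log2 fold change of -0.15 (95% confidence interval -0.35 to 0.05).

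**Figure D2:**
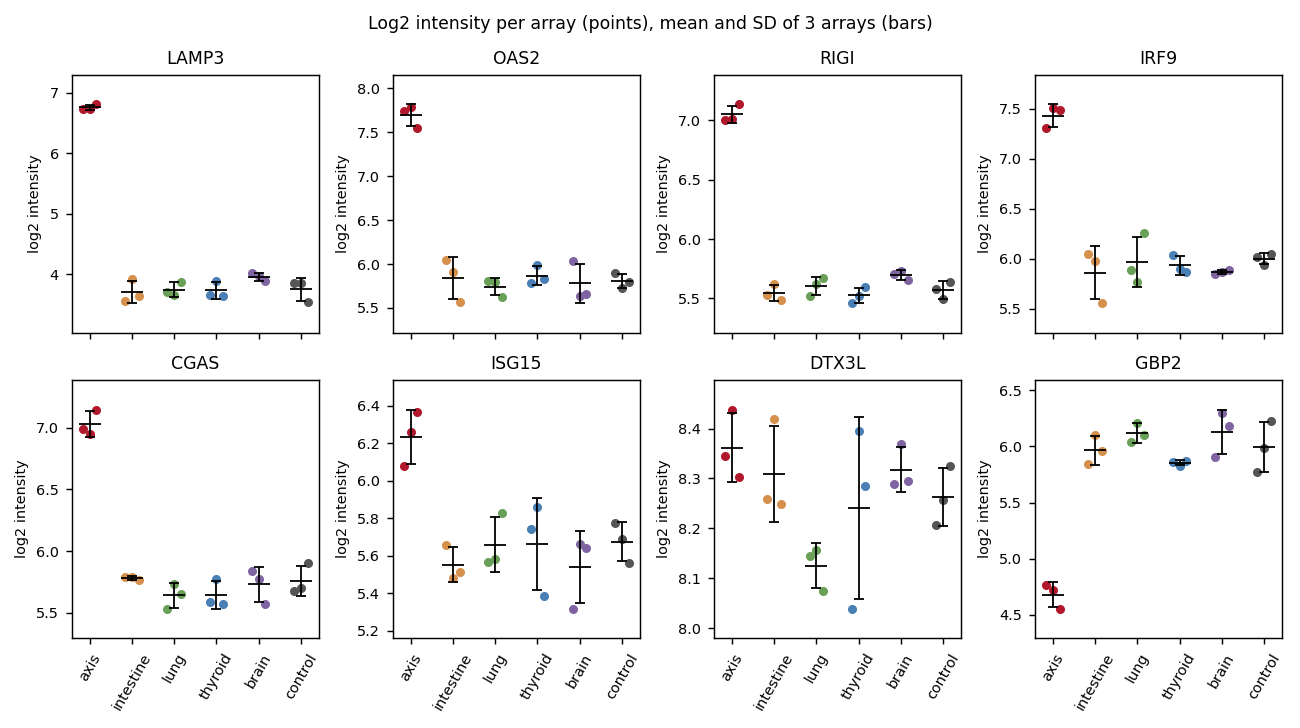
Log2 intensity of LAMP3, OAS2, RIGI, IRF9, CGAS, ISG15, DTX3L and GBP2 on each array (points), with the mean and SD of the 3 arrays of a group (bars), and a separate vertical scale per gene. The axis arrays lie above the other 15 for the first 6 genes, overlap with them for DTX3L and lie below them for GBP2.

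The other antiviral effectors were the role with calls in both directions. Of 11 genes, 2 were called higher (background 4.39%), 1 lower (2.6%) and 8 not called, and the median log2 fold change was -0.02. MX1, a dynamin-like GTPase that traps viral nucleocapsids, measured 8.12, 8.44 and 8.52 on the axis and 7.01, 6.89 and 7.31 in control, with peripheral arrays between 6.75 and 7.26. MX2, its nuclear relative, measured 4.971, 5.005 and 4.843 on the axis and 4.320, 4.309 and 4.334 in control, with peripheral arrays between 4.19 and 4.64. On the axis MX1 was thus 2.44-fold higher (1.29 ± 0.14 SE, adjusted p = 1.3e-06) and MX2 1.54-fold higher (0.62 ± 0.10 SE, adjusted p = 1.1e-04), both without overlap. RSAD2 (viperin), which makes a chain-terminating nucleotide, passed the adjusted p at 1.40-fold and SAMD9L, a restriction factor for poxviruses, at 1.23-fold, and neither was called. IFITM1, which blocks virus entry at membranes, BST2 (tetherin), which holds budding virions, CMPK2, a nucleotide kinase, and SAMD9 had log2 fold changes of 0.01, -0.04, -0.02 and -0.13, none of which passed the test.

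Of the 3 guanylate-binding proteins, large GTPases induced most strongly by interferon gamma, GBP2 was called lower and GBP1 and GBP3 were not called. GBP2 measured 4.76, 4.72 and 4.56 on the axis arrays. It measured 5.84, 6.10 and 5.96 in the intestine, 6.04, 6.21 and 6.10 in the lung, 5.87, 5.83 and 5.87 in the thyroid, 5.91, 6.30 and 6.18 in the brain position and 5.78, 5.99 and 6.23 in control. Its highest axis array was thus lower than its lowest array in any other group, and GBP2 was 2.49-fold lower than in control (-1.32 ± 0.11 SE, adjusted p = 5.8e-08). A second GBP2 probe set was also called lower (log2 fold change -1.24). GBP1 measured 4.63, 4.60 and 4.36 on the axis and 4.96, 4.99 and 5.38 in control, 1.495-fold lower (-0.58 ± 0.18 SE, adjusted p = 0.027), which fell short of the call. Without control replicate 1 or 2, or axis replicate 1 or 2, GBP1 was called lower, at log2 fold changes between -0.65 and -0.61. GBP3 had a log2 fold change of -0.42 (adjusted p = 0.068) and its highest axis array at 8.08 was next to a control array at 8.09.

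Of the 2 antigen presentation genes, 1 was called higher, and so few genes cannot be weighed against the background of 4.39%. TAP1, a subunit of the transporter that brings peptides to MHC class I, measured 7.22, 7.43 and 7.43 on the axis and 6.46, 6.52 and 6.54 in control (1.80-fold higher, adjusted p = 3.8e-06), with peripheral arrays between 6.13 and 6.64. PSMB9, a catalytic subunit of the immunoproteasome encoded next to TAP1, had a log2 fold change of 0.03 (95% confidence interval -0.16 to 0.23). TAP1 arrays on the axis were therefore clear of the other groups, and PSMB9 arrays were not.

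Interferon-induced genes of other or less certain role had 6 of 9 genes called higher (background 4.39%) and 0 lower (2.6%). Their median log2 fold change was 0.83. LAMP3, a lysosomal membrane protein known from mature dendritic cells, had the largest fold change of the 49 genes. It measured 6.73, 6.73 and 6.81 on the axis arrays. It measured 3.56, 3.91 and 3.64 in the intestine, 3.71, 3.65 and 3.88 in the lung, 3.66, 3.89 and 3.64 in the thyroid, 4.02, 3.97 and 3.89 in the brain position and 3.86, 3.85 and 3.53 in control. The 3 brain arrays lay above the lung and control arrays and overlapped with those of the intestine and thyroid, and all other groups were far below the axis, where LAMP3 was 8.05-fold higher than in control (3.01 ± 0.11 SE, adjusted p = 6.3e-13).

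IFI44L, a gene of uncertain function used as a marker of interferon exposure, had 4.14, 5.20 and 4.73 on the axis and 2.95, 2.78 and 3.00 in control, with peripheral arrays between 2.72 and 3.12. It was 3.44-fold higher than in control (1.78 ± 0.17 SE, adjusted p = 2.9e-07), with the widest spread of any member on the axis (SD 0.53). XAF1, a protein that promotes apoptosis, had 8.72, 8.85 and 8.93 on the axis and 7.73, 7.64 and 7.88 in control (2.13-fold higher, adjusted p = 5.6e-08), with peripheral arrays between 7.52 and 7.82. For both genes the axis stood clear of the other groups. IFI44, IFI27 and IFI6 were 1.83-fold, 1.78-fold and 1.76-fold higher. IFI35 passed the adjusted p at 1.40-fold, and EPSTI1 had a log2 fold change of 0.06. LGALS3BP, a secreted glycoprotein, was 1.32-fold lower (adjusted p = 7.2e-04), with axis arrays at 8.01, 7.88 and 7.90 and control arrays at 8.34, 8.29 and 8.37, and was not called. Of the 16 members that did not pass the adjusted p on the axis, all but IFIT1 and GBP3 had a confidence interval within 1.5-fold in either direction.

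**Figure D3:**
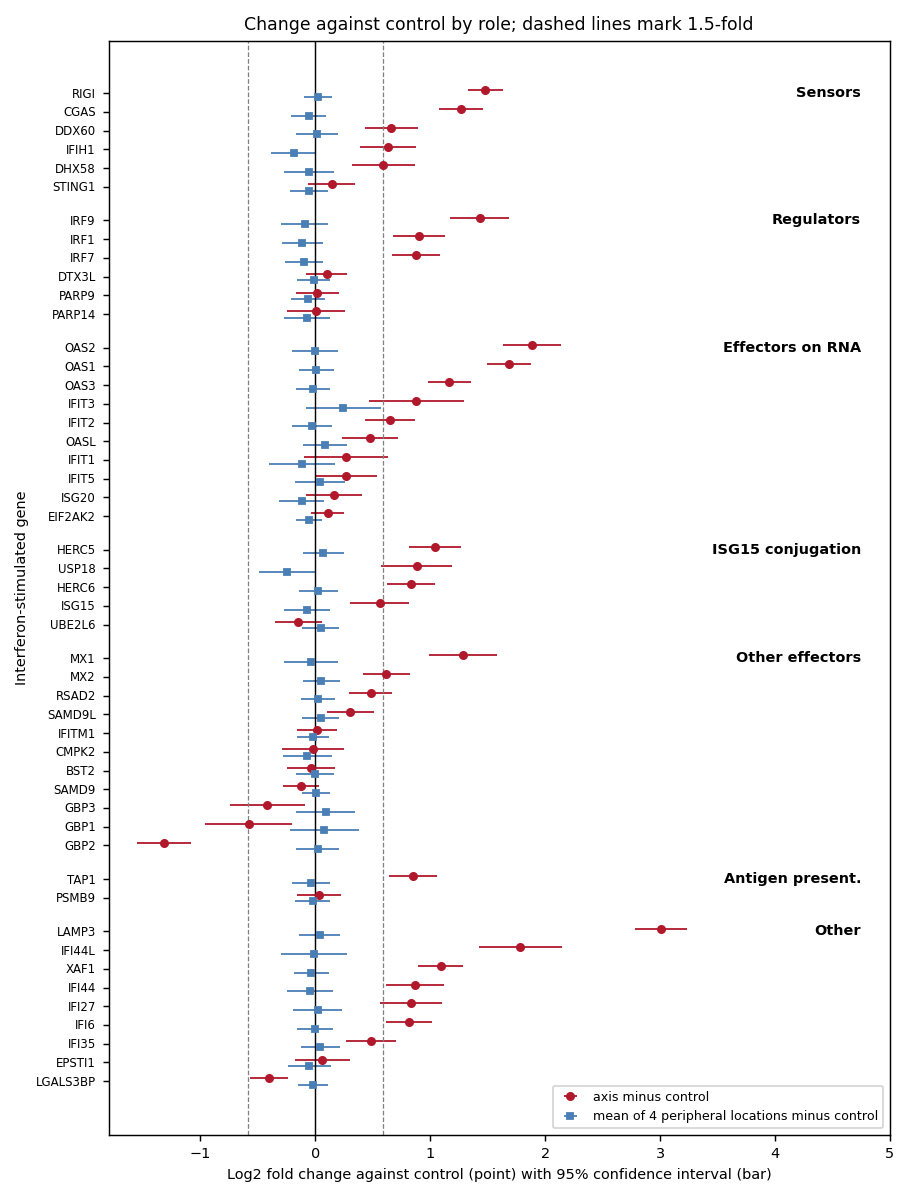
Log2 fold change of each of the 49 genes by role, with 95% confidence intervals from limma, for the axis (circles) and for the mean of the 4 peripheral locations (squares), both against control, with dashed lines at 1.5-fold. The intervals of the axis reach from -1.55 for GBP2 to 3.23 for LAMP3, and every peripheral interval lies between the dashed lines.

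Whether the change differed between the axis and the positions outside the field was tested directly, as the axis against the mean of the 4 peripheral locations. In this comparison 25 genes were called higher and 2 lower, 27 of 49 in all, against 7.12% of all genes (4.85% higher and 2.27% lower). The median log2 fold change was 0.63 over the 49 genes. LAMP3 was 7.84-fold higher, OAS2 3.69-fold, OAS1 3.20-fold and GBP2 2.53-fold lower than the peripheral mean. Relative to the comparison with control, ISG15 (1.55-fold) was called higher in addition, GBP1 (-0.66 on the log2 scale) was called lower in addition, and MX2 (1.48-fold) was not called. Both comparisons use the same axis arrays.

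In the peripheral locations, 0 of the 49 genes were called against control in the intestine, lung, thyroid or brain position, and 0 of all 22392 genes were called in these comparisons. At an unadjusted p below 0.05, limma gave 2 members for the intestine (background 3.23% of all genes), 0 for the lung (3.63%), 1 for the thyroid (4.02%) and 1 for the brain position (3.58%). All 4 of these differences were downwards: USP18 in the intestine (log2 fold change -0.38, 95% confidence interval -0.69 to -0.07) and brain position (-0.31, -0.62 to -0.00), IRF1 in the intestine (-0.24, -0.47 to -0.01) and IFIH1 in the thyroid (-0.30, -0.55 to -0.05). The members next in line were DTX3L (-0.14, -0.32 to 0.04) and IFIH1 (-0.19, -0.44 to 0.06) for the lung, PARP9 for the thyroid (-0.15, -0.34 to 0.04) and LAMP3 for the brain position (0.21, -0.01 to 0.44). None of these passed the adjustment over all genes, where each was at an adjusted p of 1.00. The 4 comparisons share the same control arrays.

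With the 4 locations pooled, 0 members were called and 0 had an unadjusted p below 0.05 (background 3.47%), USP18 (-0.24, -0.49 to 0.00) and IFIH1 (-0.19, -0.38 to 0.01) being nearest. The pooled log2 fold changes ran between -0.24 for USP18 and 0.24 for IFIT3. All 49 confidence intervals lay within 1.5-fold in either direction, the outermost bounds being -0.49 and 0.57. The same held for 22233 of all 22392 genes. A moderated F test for any difference among the 5 groups other than the axis called 0 members, 0 at an unadjusted p below 0.05 (background 3.03%), with USP18 and GBP2 nearest to it. By single location, the intervals of 46 members for the intestine, 48 for the lung, 49 for the thyroid and 47 for the brain position stayed within 1.5-fold. Of all 22392 genes, 21784, 21776, 21717 and 21773 did so in the same order. Narrow intervals were thus general on these arrays and not particular to the members.

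The median log2 fold change of the 49 genes against control was -0.047 for the intestine, -0.016 for the lung, -0.034 for the thyroid and 0.013 for the brain position, beside medians of -0.021, -0.017, -0.014 and -0.015 over all genes. Intestine replicate 3 stood low, with 4 of 49 genes above the control mean and a median of -0.16, whereas intestine replicate 2 had 40 of 49 above it and a median of 0.080. Without intestine replicate 3 the intestine median was 0.0046. Single genes show the position of this replicate: IRF9 was at 5.56 on it beside 6.05 and 5.97 on the other intestine arrays, and USP18 was at 6.26 beside 6.93 and 6.79.

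**Figure D4:**
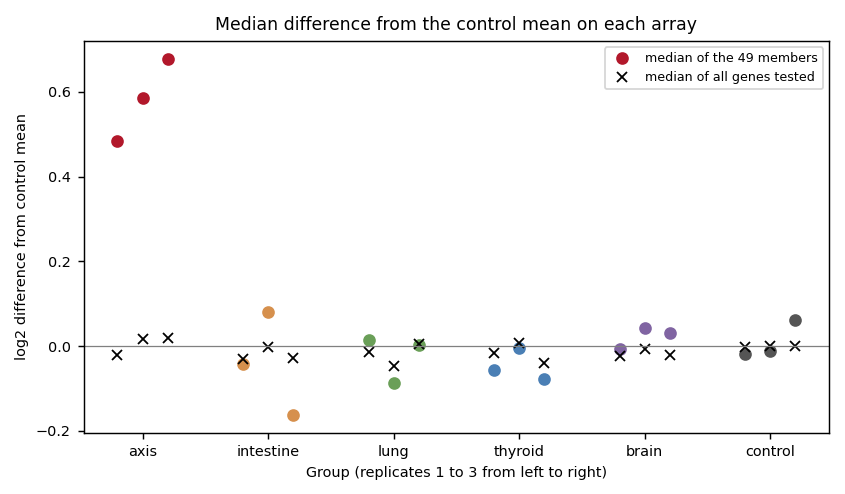
Median difference from the control mean (log2) on each array, over the 49 interferon-stimulated genes (circles) and over all genes tested (crosses), for the 6 groups with replicates 1 to 3 from left to right. The 3 axis circles lie between 0.49 and 0.68, the other 15 between -0.16 and 0.080, and the crosses stay close to 0.

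Further genes of the pathway, taken from lists that hold no member, were mostly not called on the axis. Of 85 such genes with a row, 1 was called against control (background 7%). Another 19 passed the adjusted p within 1.5-fold, 13 upwards and 6 downwards. Of all 22392 genes, 3005 did so, 1533 upwards and 1472 downwards, and 20.4% passed the adjusted p at any fold. Passing within 1.5-fold was thus common on the axis and not particular to these lists. None of the 20 interferon genes was called. IFNB1, an early type I interferon, measured 2.87, 2.84 and 2.98 on the axis and 2.62, 2.89 and 2.75 in control (log2 fold change 0.15, 95% confidence interval -0.09 to 0.39, adjusted p = 0.47). IFNL1, of the lambda type, measured 3.35, 3.44 and 3.46 on the axis and 3.24, 3.10 and 3.12 in control (0.26, 0.02 to 0.50, adjusted p = 0.13). The IFNB1 arrays overlapped and the IFNL1 arrays did not, and both differences stayed within 1.5-fold over their intervals. The deposited values carry no detection call, so whether these transcripts were above background is not known here.

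Of the interferon receptors and their kinases 0 of 9 were called, of the induction machinery 0 of 9, of other sensors 0 of 10 and of inhibitors 0 of 7. IFI16, a DNA sensor, came nearest at 1.48-fold (log2 fold change 0.57, adjusted p = 1.1e-05). Of 18 other genes of MHC class I presentation 0 were called, and 6 passed the adjusted p within 1.5-fold, 3 upwards and 3 downwards. Beside them, 3005 of all 22392 genes passed within 1.5-fold. The downward ones were NLRC5, an activator of class I genes (log2 fold change -0.37, adjusted p = 4.9e-04), the peptidase ERAP2 (-0.29, adjusted p = 0.044) and the chaperone CANX (-0.24, adjusted p = 0.015). Upwards, HLA-B had a log2 fold change of 0.45 (adjusted p = 0.023), B2M one of 0.26 (adjusted p = 0.026) and HLA-E one of 0.21 (adjusted p = 0.035), while HLA-C had 0.13 (adjusted p = 0.25). Of 8 MHC class II genes 0 were called. CXCL11, a chemokine for T cells, was the called gene, with 3.61, 4.18 and 3.93 on the axis and 3.19, 3.23 and 2.92 in control (1.73-fold higher, adjusted p = 1.4e-04), while CXCL10 had a log2 fold change of 0.13. In the peripheral locations 0 of these genes were called.

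Several members are neighbours in the genome, and members that start within 500 kb of another formed 11 clusters with 27 genes. In 4 clusters the members differed in call. OAS1, OAS3 and OAS2 on chromosome 12 were all higher on the axis, as were IFI44L with IFI44 on chromosome 1, HERC6 with HERC5 on chromosome 4 and MX2 with MX1 on chromosome 21. PARP9 with DTX3L and PARP14 on chromosome 3, CMPK2 with RSAD2 on chromosome 2 and SAMD9 with SAMD9L on chromosome 7 were not called. IFIT2 and IFIT3 were called and IFIT1 and IFIT5 were not on chromosome 10, IRF7 but not IFITM1 on chromosome 11, TAP1 but not PSMB9 on chromosome 6, and GBP2 but not GBP1 or GBP3 on chromosome 1. An ISRE match was in 11 of 17 windows of genes called higher (64.7%) and in 14 of 21 of genes not called (66.7%).

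The arrays were alike in scale, with medians of 4.07 to 4.22 and correlations within a group of at least 0.992. Of the epithelial markers KRT5, KRT8, KRT18, EPCAM and CDH1, KRT5 was called lower on the axis (log2 fold change -0.73) and the group means of the 5 ran between 3.88 and 6.41 on the axis and between 4.10 and 6.83 in control. None of 4 markers of luminal prostate cells was called, with means of 2.88 to 3.77 on the axis and 2.85 to 3.96 in control. None of 8 leukocyte markers was called either, with means of 2.43 to 4.26 on the axis and 2.47 to 4.02 in control. The defining marker PTPRC was the lowest of them, at 2.43 on the axis and 2.47 in control. Downwards, 1 leukocyte marker passed the adjusted p in limma within 1.5-fold (adjusted p = 0.017). The highest leukocyte mean was above the lowest epithelial mean on the axis and below it in control. The 4 stromal markers had means of 2.62 to 6.87 on the axis and 2.63 to 8.70 in control. Their highest mean was above that of the epithelial markers in both groups. Of these 4 markers, COL1A1 was called lower (log2 fold change -1.82). The part of these differences in the results above was not tested.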

How the data were processed

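Expression was measured on 18 Human Gene 2.1 ST arrays, 3 in each of 6 groups taken from the sample labels. The authors corrected the background and normalised the arrays with RMA in the affy library, and the deposited values are log2 intensities. The submitters' processing notes name the same tools without a version. Of 53617 probe sets, 23866 carried 1 gene symbol, 1852 carried several and 27899 are unnamed here, and the first class gave 22392 genes with the highest-mean row of each. Groups were compared with lmFit and eBayes in limma 3.58.1 (R 4.3.3) over all 18 arrays with 1 mean per group and 12 residual degrees of freedom, as checked on simulated data. P-values were adjusted by Benjamini-Hochberg over all 22392 genes, and confidence intervals are at 95%. Some pathway genes and one promoter motif are not reported here. Promoter windows and gene order came from RefSeq tables of GRCh38.p14, and windows of 11 members (DHX58, CGAS, STING1, IRF7, OAS2, OASL, IFIT2, USP18, MX2, GBP2 and LAMP3) were not used here. Array values are printed for all sensors, for up to 3 called genes of each role with the largest fold change and for called genes that were lower. The members, the pathway lists and the marker lists were chosen with earlier results of these data known. Array strips and scan dates are not given in the sources used here, and a batch test was not made. Alternatives covered other normalisations, filters, thresholds, summaries of probe sets, a replicate block and leaving out each array. The sample labels and the paper name different labelling kits.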

Additional observations from a re-analysis of the deposited data

Results flagged for a closer look

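The change against control differed between the beam axis and the positions outside the field. Limma called 27 of the 49 genes in the test of the axis against the mean of the 4 peripheral locations, 25 of them higher and 2 lower on the axis, against 7.12% of all genes. In each gene called in that test the direction was that of the comparison with control. Both comparisons use the same axis arrays, and the pooled peripheral changes against control ran only between -0.24 and 0.24. The shared direction is therefore not separate evidence. The peripheral locations pooled gave 0 called genes against control.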

How the results depend on the processing

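Over 30 other settings, 18 of which left out an array, no called gene changed direction. The count of genes called on the axis against control was 26, and limma's treat, which tests against the 1.5-fold limit itself, called 12: LAMP3, OAS2, IFI44L, OAS1, RIGI, IRF9, MX1, CGAS, OAS3, XAF1, HERC5 and GBP2. For the axis against the peripheral mean, treat called 17 in place of 27. Leaving out each array gave 25 to 28 calls against control and 25 to 28 against the peripheral mean. Of the 26 calls, 23 held under every setting other than treat in which they were tested, and DHX58, IFIH1 and IFIT2 were lost without single arrays. Without a fold threshold 33 genes passed against control. When only genes above the median gene were tested, IFI44L, IFIH1, IFIT2, IRF7, ISG20 and RSAD2 were left out and 22 of the other 43 were called. Against control the peripheral locations and the F test gave 0 calls under every setting run. The methods name no pairing of samples by replicate number, and none was detected. Deviations of arrays with the same number correlated between -0.36 and 0.22, and 4 of 18 arrays were closest to their own number. With 3 arrays per group these values cannot exclude a pairing. With the replicate number as a block, 26 genes were called against control and 27 against the peripheral mean. Signal over background limits the dim genes, for which no detection call was given.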

Other observations

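Several members were measured by more than one probe set or share a row with another gene. The second IRF9 probe set, with means of 4.16 on the axis and 3.89 in control, had a log2 fold change of 0.27 (adjusted p = 0.54), whereas the brighter set carried the call. TAP1 rows ranged between log2 fold changes of 0.82 and 0.85, and 4 PSMB9 rows lay between 0.02 and 0.04. Most TAP1 rows and some PSMB9 rows were identical on every axis and control array, so they are not all separate measurements. The second GBP3 set had -0.16. Rows shared between a member and another gene were not called: TRIM25 with MIR3614 had a log2 fold change of -0.27 (adjusted p = 0.032), GBP7 with GBP2 0.13, RNF31 with IRF9 -0.06 and PSMB8-AS1 with PSMB9 0.11.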
